A study of Homo sapiens with 20 samples.

Results

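The 46 genes described here encode proteins that build ribosomes. They are 6 genes of RNA polymerase I and its factors, 3 core proteins of the box C/D snoRNPs, 4 core proteins of the box H/ACA snoRNPs, 4 nucleolar shuttle and scaffold proteins, 12 small-subunit assembly factors and 17 large-subunit assembly factors. They were chosen by gene symbol, and each matched 1 of the 60483 Ensembl genes in the deposited expression matrix. The rule sets no threshold on a measured value. Total RNA of human multiple myeloma cell lines was sequenced to measure transcript levels; myeloma is the cancer of antibody-secreting plasma cells. Cells received indirubin-3'-monoxime (I3MO), an indirubin derivative known as a kinase inhibitor and as a ligand of the aryl hydrocarbon receptor, or the solvent DMSO.

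There were 10 groups of 2 libraries each. ANBL6 (genotype wild type) and ANBL6BR (ANBL6 cells of the genotype bortezomib resistant) were treated with 5 µM I3MO or with DMSO. ARP1, RPMI8226 and U266 (all wild type) were treated with 10 µM I3MO or with DMSO. The dose and the cell line therefore cannot be told apart, and the treatment time is not given in the sources used here. ANBL6BR is set against its parent as 1 resistant line, so resistance and any other difference between these lines cannot be told apart. The labels do not say whether replicates came from separate cultures, so p-values measure only the spread between these libraries, which may be technical.

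Ribosome production starts in the nucleolus, where RNA polymerase I, recruited by UBTF and RRN3, transcribes the ribosomal DNA into a long precursor RNA. Small nucleolar RNPs then guide its chemical modification: box C/D particles methylate riboses and box H/ACA particles turn uridines into pseudouridines. Assembly factors, many of them helicases, WD-repeat scaffolds and nucleases, fold and cut the precursor into the small and large subunits, and plasma cells, which secrete antibody, depend on a high capacity for protein synthesis.

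Libraries held 12.11 to 20.31 M fragments, recovered from the deposited FPKM values (fragments per kilobase of exon, scaled to the fragments of the library). Every member was measured, from 38 to 502 fragments for PPAN, the lowest, and from 4516 to 46340 for NPM1. The tissue label is bone marrow. In every library 7 of 8 plasma-cell markers were at an FPKM of at least 1, with a summed FPKM of 154 to 582; the 8th, SLAMF7, was near 0 in ANBL6. Summed markers of T cells (0.01 to 6.17), monocytes (0.05 to 0.62), erythroid cells (0.04 to 5.99) and stromal cells (0 to 4.62) stayed far lower. More genes were above 0 in ANBL6 I3MO (32668 and 28419) than in ANBL6 DMSO (22138 and 22710). The 2 ANBL6BR DMSO libraries differed from each other. All 8 plasma-cell markers were higher in replicate 1 than in replicate 2, among them IRF4 (264.88 and 93.2 FPKM) and SDC1 (90.32 and 41.99 FPKM). The member RRP12 was lower in replicate 1 (5.91 and 12.4 FPKM). Both the ANBL6BR baseline and its I3MO comparison rest on these 2 libraries.

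MYC, the transcription factor best known for driving these genes, binds the E-box CACGTG, and the promoters of 4 members that carry this motif are shown. Among the called members with a matched promoter holding it, these had the smallest p-values in ARP1, 2 in each direction. GNL3 and GRWD1, with smaller p-values in ARP1, had no CACGTG in their promoters. RefSeq promoters (GRCh38.p14, 250 bases before to 50 bases after the gene start) were matched for 38 of the 46 members. The sequences run 5′ to 3′ on the gene's strand, and capitals mark the E-box, searched as CACGTG, which reads the same on both strands.
WDR43: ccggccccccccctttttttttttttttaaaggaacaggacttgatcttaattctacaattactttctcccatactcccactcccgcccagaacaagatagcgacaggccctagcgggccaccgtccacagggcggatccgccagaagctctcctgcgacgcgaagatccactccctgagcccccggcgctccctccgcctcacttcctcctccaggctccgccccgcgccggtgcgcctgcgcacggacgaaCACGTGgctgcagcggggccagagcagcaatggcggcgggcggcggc
NOC3L: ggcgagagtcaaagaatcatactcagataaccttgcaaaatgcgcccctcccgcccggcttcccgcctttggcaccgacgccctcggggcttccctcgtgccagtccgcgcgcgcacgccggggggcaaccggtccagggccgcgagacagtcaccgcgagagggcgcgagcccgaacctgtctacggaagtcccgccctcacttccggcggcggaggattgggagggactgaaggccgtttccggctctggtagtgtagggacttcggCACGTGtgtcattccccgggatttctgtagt
MRTO4: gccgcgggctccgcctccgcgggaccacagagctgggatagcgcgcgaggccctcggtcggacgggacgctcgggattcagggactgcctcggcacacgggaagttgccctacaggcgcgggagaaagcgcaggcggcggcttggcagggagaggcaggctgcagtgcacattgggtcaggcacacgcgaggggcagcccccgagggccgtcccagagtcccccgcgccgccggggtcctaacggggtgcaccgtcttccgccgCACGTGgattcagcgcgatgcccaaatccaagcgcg
NOP2: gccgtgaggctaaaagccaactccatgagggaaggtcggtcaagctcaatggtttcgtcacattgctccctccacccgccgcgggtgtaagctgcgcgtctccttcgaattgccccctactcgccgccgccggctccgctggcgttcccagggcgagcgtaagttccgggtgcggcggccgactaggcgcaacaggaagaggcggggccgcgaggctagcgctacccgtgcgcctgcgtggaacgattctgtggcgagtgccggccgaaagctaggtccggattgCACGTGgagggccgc
The windows lie at chr2:28894417-28894716 (WDR43, plus strand), chr10:94362890-94363189 (NOC3L, minus strand), chr1:19251555-19251854 (MRTO4, plus strand) and chr12:6568242-6568541 (NOP2, minus strand). The E-box begins 3, 19, 14 and 35 bases after the gene start in WDR43, NOC3L, MRTO4 and NOP2. In all, 13 of the 38 member promoters held CACGTG (34.2%), against 2548 of all 35116 promoters of this length (7.26%) and 990 of the 9554 promoters of tested genes (10.4%). A match is a description of the letters in the window and not evidence of binding.

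In DMSO the levels of these genes differed widely between the cell lines. With FPKM recomputed on the merged exon length so that genes can be compared, NPM1, the histone and ribosomal-protein chaperone nucleophosmin, had the highest level (274 on average over the 5 lines), followed by NCL (nucleolin, 158), NOP10 (137), FBL (127) and NOLC1 (115). DDX10 (6.09), RRN3 (5.21) and PPAN (4.59) had the lowest. On the deposited FPKM scale, the line with the highest mean was 1.33 to 9.52 times the line with the lowest, with a median over the 46 genes of 2.37. UTP20, a large scaffold of the small-subunit processome, differed most, at 11.9 FPKM in ANBL6BR and 1.25 FPKM in RPMI8226. GRWD1, a chaperone of ribosomal protein RPL3, had 95 FPKM in ARP1 and 14.8 FPKM in ANBL6. ANBL6 had the highest level for 18 members and ARP1 for 14, and U266 had the lowest for 18 and RPMI8226 for 15. These ranks depend on the scaling. Scale factors by the median ratio to a mean library were 0.82 and 0.807 for RPMI8226 DMSO and 0.906 and 0.955 for ARP1 DMSO. In the DMSO libraries of ANBL6, ANBL6BR and U266 they were 1.08 to 1.17. Dividing by them would raise RPMI8226 and ARP1 relative to these lines, and the ranks were not recomputed. A limma test that the 5 lines have equal DMSO levels was rejected at an adjusted p under 0.05 for 45 of the 46 members, beside 90% of all tested genes; NHP2 was the exception (limma adjusted p = 0.0703).

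**Figure D1:**
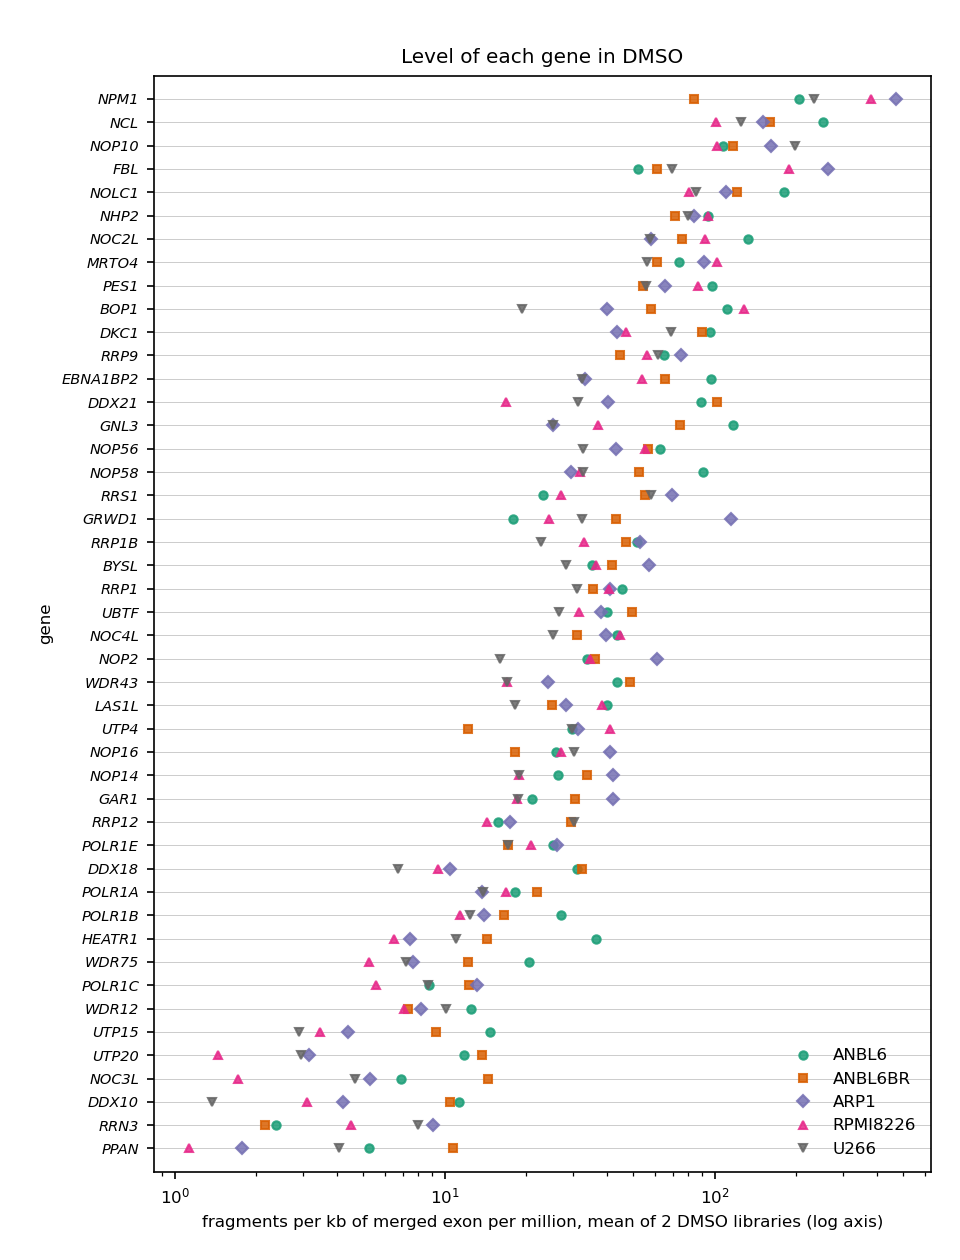
Level of each of the 46 members in DMSO in the 5 cell lines; points are means of 2 libraries in fragments per kilobase of merged exon, scaled to the library (log axis), and genes run from the highest mean, NPM1, at the top to PPAN at the bottom. The spread between lines reaches 9.52 times, for UTP20.

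The calls after I3MO went in both directions. Of the 46 members, 37 (80.4%) were called in at least 1 cell line, beside 64.2% of all genes, and 9 in none, with 23 calls higher and 27 lower (limma on log2(FPKM + 1), adjusted p under 0.05 over 15687 tested genes). Only NOC2L and LAS1L were called the same way in 3 lines, both lower (4.35% of the members, beside 8.47% of all genes in 3 or more lines). Another 5 were called the same way in 2 lines (10.9%, beside 13.9% of all genes; NOLC1, GRWD1, NOP56 and BYSL lower, POLR1E higher), and 4 were called in opposite directions in different lines (NOLC1, POLR1B, PES1 and NOP2; 8.7%, beside 5.9% of all genes). Averaged over the 5 lines, limma called 0 members at the adjusted threshold and 0% of all genes; 5 members had an unadjusted p under 0.05, the mean changes ran from −0.32 to 0.47 log2, and no other tool was run. In a bulk sample, fewer cells of a type and less RNA per cell cannot be told apart.

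By cell line, the counts were as follows. In ANBL6 (5 µM), 5 members were called, 1 higher and 4 lower, beside 7.97% of all genes (4.1% higher, 3.87% lower). In ANBL6BR (5 µM), 6 were called, 3 higher and 3 lower, beside 18.4% (10% higher, 8.4% lower). In ARP1 (10 µM), 27 were called, 14 higher and 13 lower, beside 37% (23.1% higher, 13.9% lower). In RPMI8226 (10 µM), 5 were called, 4 higher and 1 lower, beside 14.8% (6.19% higher, 8.62% lower), and in U266 (10 µM), 7 were called, 1 higher and 6 lower, beside 26.2% (10.5% higher, 15.8% lower). The called share of the members, 58.7%, was above the background in ARP1. It was 10.9% in ANBL6 and below the background in ANBL6BR (13%), RPMI8226 (10.9%) and U266 (15.2%). This background includes noncoding genes and genes of low FPKM. With protein-coding genes only, 50% of genes and 29 members were called in ARP1, and 11.6% and 4 members in ANBL6. With a mean FPKM of at least 5, 48.3% of genes and 25 of 40 members were called in ARP1, and 16.1% and 5 of 40 in ANBL6. The median change of the members was −0.09 in ANBL6, 0.07 in ANBL6BR, −0.13 in ARP1, 0.01 in RPMI8226 and −0.1 in U266, beside 0.01, 0, 0.03, −0.01 and −0.02 for all genes. Both I3MO libraries lay on the same side of both DMSO libraries for 26 members in ANBL6 (beside 57.5% of all genes), 25 in ANBL6BR (50.7%), 40 in ARP1 (64.3%), 25 in RPMI8226 (58.9%) and 25 in U266 (54.7%), so groups without overlap were common among all genes.

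These calls rest on a spread shared by all 20 libraries. Fits on the 4 libraries of a line alone called 0 members in ANBL6, ANBL6BR and ARP1, 6 in RPMI8226 and 1 in U266. Of all genes, they called 0.115% in ANBL6, 0.408% in ANBL6BR, 1.45% in ARP1, 10.6% in RPMI8226 and 6.21% in U266, so the loss of calls was not particular to the members. Left out 1 at a time, the libraries changed the count to 0 to 2 in ANBL6, 2 to 6 in ANBL6BR, 16 to 25 in ARP1, 2 to 3 in RPMI8226 and 3 to 10 in U266. Another scaling, by the median ratio to a mean library, lowered ARP1 I3MO relative to ARP1 DMSO by 0.29 log2 in its scale factors, and by less in genes of low FPKM on the log2(FPKM + 1) scale; called genes that were higher then made up 40.8% in place of 62.5% in ARP1 and 37.3% in place of 51.4% in ANBL6, and the ARP1 members split into 12 higher and 23 lower.

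**Figure D2:**
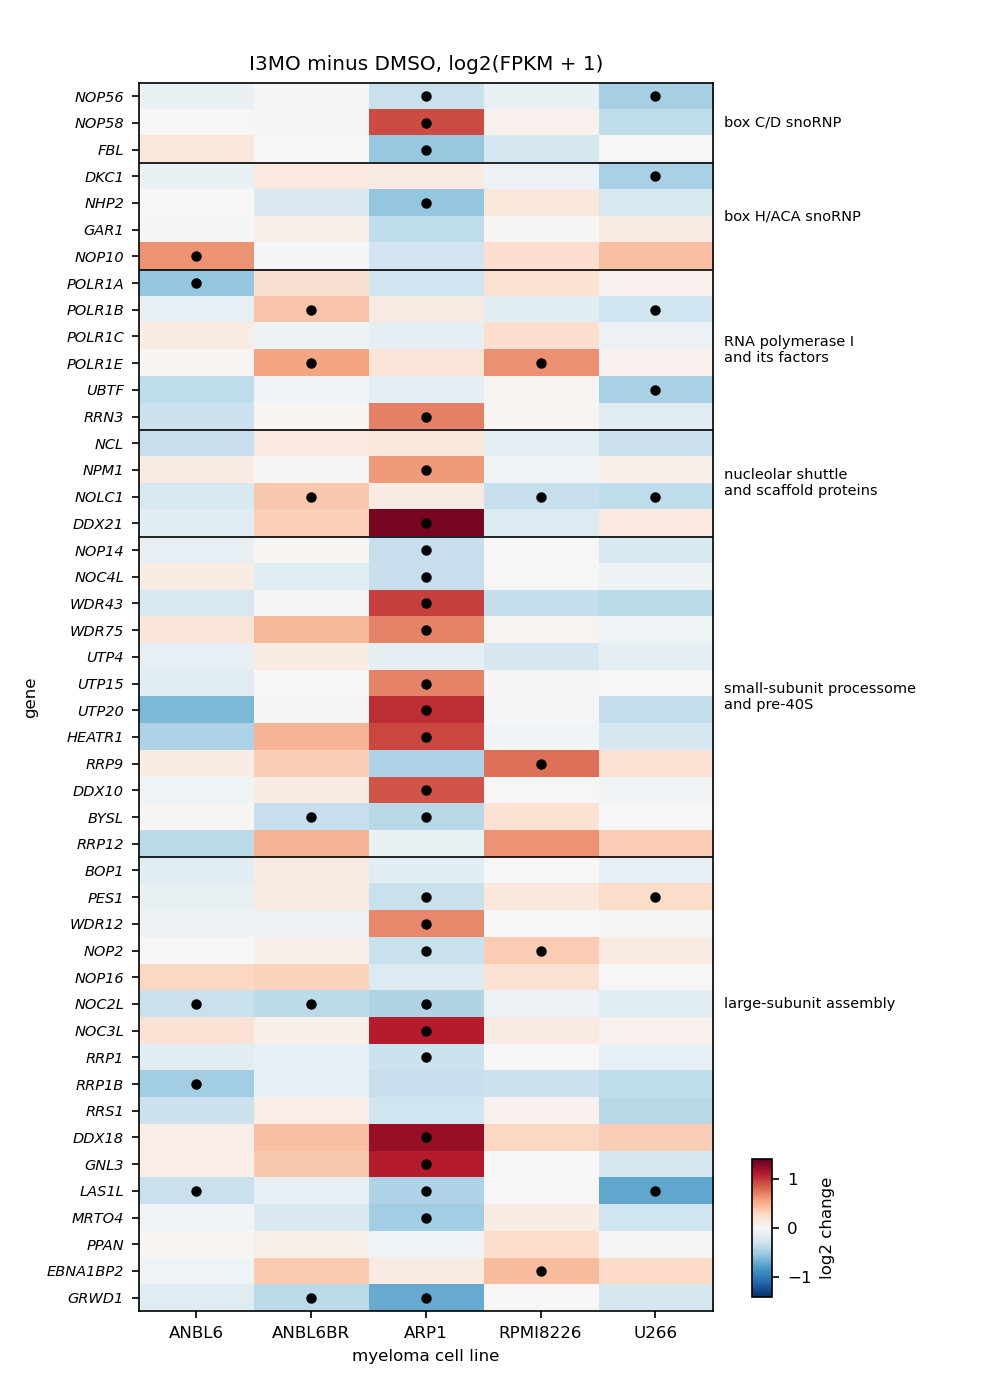
Difference between I3MO and DMSO in log2(FPKM + 1) for the 46 members (rows, grouped by role) in the 5 cell lines (columns); red is higher and blue lower in I3MO, and black dots mark limma adjusted p under 0.05. ARP1 has 27 of the 50 dots, 14 on red and 13 on blue cells.

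Among the RNA polymerase I genes, POLR1E, a subunit that takes part in initiation and elongation, was called higher in 2 lines. It had 11.2 and 11.2 FPKM in ANBL6BR I3MO against 8.32 and 6.4 FPKM in ANBL6BR DMSO, and 14.5 and 14.4 FPKM in RPMI8226 I3MO against 8.13 and 9.76 FPKM in RPMI8226 DMSO. Both I3MO libraries lay above both DMSO libraries in each line. The changes were 0.55 ± 0.12 log2 (SE; limma adjusted p = 0.00763) in ANBL6BR and 0.64 ± 0.12 (limma adjusted p = 0.00377) in RPMI8226. The ANBL6BR call was lost without DMSO replicate 2 (limma adjusted p = 0.0631) and without I3MO replicate 2 (0.0508). In ANBL6 (10.3 and 11.8 FPKM in I3MO against 10.4 and 11.2 in DMSO) and U266 (6.92 and 8.53 in I3MO against 7.33 and 7.28 in DMSO), the treated and untreated libraries overlapped.

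POLR1B, the second largest subunit of the enzyme, was called in opposite directions. It had 4.42 and 3.99 FPKM in ANBL6BR I3MO against 2.99 and 2.88 FPKM in ANBL6BR DMSO (0.4 ± 0.08 log2, limma adjusted p = 0.00376). In U266 it had 1.54 and 1.72 FPKM in I3MO against 2.4 and 1.99 FPKM in DMSO (−0.28 ± 0.08, limma adjusted p = 0.0186). The groups did not overlap in either line; the U266 call was lost without DMSO replicate 1 (limma adjusted p = 0.19) and without I3MO replicate 1 (0.093). POLR1A, the largest, catalytic subunit, had 7.02 and 6.44 FPKM in ANBL6 I3MO against 9.38 and 11.2 FPKM in ANBL6 DMSO. That change of −0.54 ± 0.12 log2 (limma adjusted p = 0.0179) was lost without DMSO replicate 2 or I3MO replicate 2, and in ANBL6BR POLR1A lay at 14.8 and 13.9 FPKM in I3MO against 10.8 and 13.8 FPKM in DMSO.

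RRN3, the factor that makes the polymerase competent to start, rose in ARP1. It had 6.13 and 5.54 FPKM in ARP1 I3MO against 2.59 and 3.85 FPKM in ARP1 DMSO, without overlap (0.71 ± 0.13 log2, limma adjusted p = 0.00123). UBTF, which opens ribosomal DNA for transcription, had 4.23 and 4.25 FPKM in U266 I3MO against 6.21 and 6.12 FPKM in U266 DMSO, again without overlap. The UBTF change of −0.45 ± 0.13 log2 (limma adjusted p = 0.0199) was lost when any 1 of the 4 U266 libraries was left out (limma adjusted p = 0.063 to 0.0886). POLR1C, a subunit shared with RNA polymerase III, was called in no line after I3MO.

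The box C/D proteins split in ARP1. NOP58 had 24.6 and 22.2 FPKM in ARP1 I3MO against 9.52 and 14.9 FPKM in ARP1 DMSO, and its partner NOP56 had 7.59 and 8.03 FPKM in ARP1 I3MO against 10.5 and 9.29 FPKM in ARP1 DMSO. The groups did not overlap for either gene, and they moved in opposite directions (NOP58 0.91 ± 0.14 log2, limma adjusted p = 0.000395; NOP56 −0.31 ± 0.1, limma adjusted p = 0.0254). FBL, fibrillarin, the methyltransferase of the same particle, had 38.7 and 49.9 FPKM in ARP1 I3MO against 61.8 and 66.1 FPKM in ARP1 DMSO (−0.53 ± 0.12, limma adjusted p = 0.00477). The NOP56 call was lost without ARP1 DMSO replicate 1, I3MO replicate 1 or I3MO replicate 2, and the FBL call without I3MO replicate 1. In U266, NOP56 had 4.69 and 5.64 FPKM in I3MO against 7.41 and 7.58 FPKM in DMSO, which do not overlap (−0.47 ± 0.1 log2, limma adjusted p = 0.00332, kept in every leave-out). No box C/D protein was called in ANBL6, ANBL6BR or RPMI8226.

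Of the box H/ACA proteins, DKC1, dyskerin, the pseudouridine synthase, was called lower in U266. It had 14 and 17.3 FPKM in U266 I3MO against 22.2 and 21.3 FPKM in U266 DMSO, without overlap. The change was −0.45 ± 0.12 log2 (limma adjusted p = 0.0124), and it was lost without DMSO replicate 1 (limma adjusted p = 0.0742) or I3MO replicate 1 (0.101). NOP10, a small structural subunit, had 83.1 and 106 FPKM in ANBL6 I3MO against 62.2 and 58.3 FPKM in ANBL6 DMSO. It rose by 0.63 ± 0.16 log2 (limma adjusted p = 0.0302), a call lost without DMSO replicate 1, DMSO replicate 2 or I3MO replicate 2. NHP2, an RNA-binding subunit, had 21.9 and 27.3 FPKM in ARP1 I3MO against 32.5 and 39.9 FPKM in ARP1 DMSO (−0.54 ± 0.14 log2, limma adjusted p = 0.00931); that call was lost without DMSO replicate 2 or I3MO replicate 1, and 27.4% of its exon bases are shared with other genes. GAR1 was called in no line after I3MO.

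Of the nucleolar shuttle and scaffold proteins, NOLC1, a chaperone of snoRNPs that moves between nucleolus and Cajal bodies, was called in 3 lines and not in 1 direction. It had 29.4 and 28.7 FPKM in ANBL6BR I3MO against 21.3 and 22.8 FPKM in ANBL6BR DMSO. It had 11.2 and 12 FPKM in RPMI8226 I3MO against 14.9 and 14.5 FPKM in RPMI8226 DMSO, and 11.1 and 13.1 FPKM in U266 I3MO against 15.6 and 15.6 FPKM in U266 DMSO. Treated and untreated libraries did not overlap in any of the 3 lines, with the treated higher in ANBL6BR (0.38 ± 0.08 log2, limma adjusted p = 0.00534) and lower in RPMI8226 (−0.32 ± 0.08, limma adjusted p = 0.0171) and U266 (−0.35 ± 0.08, limma adjusted p = 0.00605). In RPMI8226 the call was lost without DMSO replicate 1, DMSO replicate 2 or I3MO replicate 1; with median-ratio scaling it was lost in all 3 lines.

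In ARP1, NPM1 had 263 and 286 FPKM in I3MO against 145 and 223 FPKM in DMSO, and DDX21, an RNA helicase that couples polymerase I transcription to processing, had 62.1 and 44.7 FPKM in I3MO against 15.1 and 27.4 FPKM in DMSO. Neither gene's groups overlapped, but replicate 2 of DMSO was well above replicate 1. DDX21 rose by 1.33 ± 0.28 log2 (limma adjusted p = 0.00279) and NPM1 by 0.6 ± 0.17 (limma adjusted p = 0.0141). The NPM1 call was lost without DMSO replicate 1 or I3MO replicate 2, and also with median-ratio scaling. Reads of NPM1 cannot be separated here from those of its 45 annotated pseudogenes. NCL was called in no line after I3MO.

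**Figure D3:**
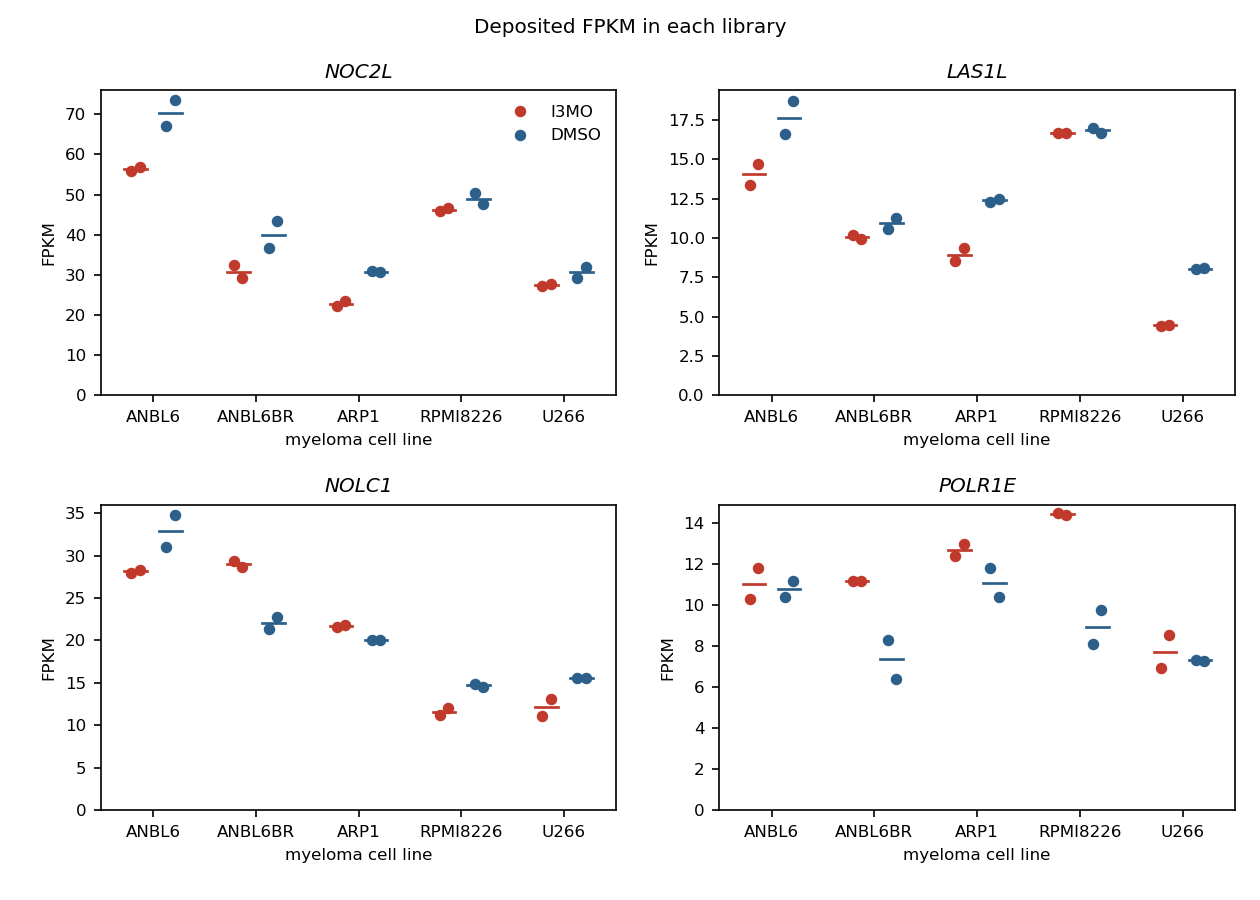
FPKM of NOC2L, LAS1L, NOLC1 and POLR1E in each of the 20 libraries, I3MO left of DMSO in every cell line; each point is 1 library and the bar is the mean of 2. NOC2L and LAS1L are lower in I3MO where called, NOLC1 is higher in ANBL6BR and lower in RPMI8226 and U266, and POLR1E is higher in ANBL6BR and RPMI8226.

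The small-subunit factors changed mainly in ARP1, where 6 of 12 rose and 3 fell. Among the risers, WDR43, a WD-repeat protein of the processome, had 32.6 and 27.9 FPKM in ARP1 I3MO against 11.4 and 19.6 FPKM in ARP1 DMSO (0.96 ± 0.19 log2, limma adjusted p = 0.0017). DDX10, a helicase of the same complex, had 5.79 and 5.7 FPKM in I3MO against 2.07 and 3.38 FPKM in DMSO (0.88 ± 0.14, limma adjusted p = 0.000379). Neither gene's groups overlapped. UTP15 (0.7 log2), HEATR1 (0.94), WDR75 (0.7) and UTP20 (1.03), scaffolds of the processome, also rose, while NOP14 (−0.32), NOC4L (−0.32) and BYSL (−0.39) fell. The calls of HEATR1, WDR75, UTP20, NOP14, NOC4L and BYSL were lost without 1 or more of the ARP1 libraries (I3MO replicate 1 for each of these 6), while those of WDR43, DDX10 and UTP15 were kept in every leave-out. The UTP20 call was also lost with median-ratio scaling.

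BYSL, bystin, needed for release of the small subunit precursor, had 15.8 and 18.2 FPKM in ARP1 I3MO against 22.7 and 22.3 FPKM in ARP1 DMSO, and 12.7 and 12.9 FPKM in ANBL6BR I3MO against 14.7 and 18.1 FPKM in ANBL6BR DMSO. The treated libraries were the lower ones in both lines, without overlap (ARP1 limma adjusted p = 0.00571; ANBL6BR −0.32 ± 0.09 log2, limma adjusted p = 0.0282). The ANBL6BR call was lost without DMSO replicate 2, I3MO replicate 1 or I3MO replicate 2 (limma adjusted p = 0.114 to 0.206). RRP9, a protein of the snoRNP that takes part in early cuts of the precursor, had 94.8 and 100 FPKM in RPMI8226 I3MO against 60.8 and 53.1 FPKM in RPMI8226 DMSO (0.77 ± 0.18 log2, limma adjusted p = 0.0123). It did not overlap between groups there, and the call was lost in each leave-out but that of DMSO replicate 1 (limma adjusted p = 0.06 to 0.0965).

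The large-subunit factors held the 2 genes that fell in 3 lines. NOC2L, a nucleolar assembly factor also known as an inhibitor of histone acetyltransferases (chromosome 1, positions 944204 to 959309, minus strand, hg38), had 55.8 and 56.9 FPKM in ANBL6 I3MO against 67.1 and 73.5 FPKM in ANBL6 DMSO. In ANBL6BR it had 32.4 and 29.1 FPKM in I3MO against 36.6 and 43.4 FPKM in DMSO, and in ARP1 22.1 and 23.4 FPKM in I3MO against 30.9 and 30.7 FPKM in DMSO. No treated library reached an untreated one of its line. In RPMI8226 (45.8 and 46.7 FPKM in I3MO against 50.3 and 47.6 in DMSO) and U266 (27.1 and 27.7 in I3MO against 29.3 and 31.9 in DMSO), the treated libraries were also the lower ones, but the differences did not pass the test. The changes were −0.31 ± 0.09 log2 (limma adjusted p = 0.0476) in ANBL6, −0.37 ± 0.09 (limma adjusted p = 0.0119) in ANBL6BR and −0.42 ± 0.09 (limma adjusted p = 0.0026) in ARP1. With median-ratio scaling the ANBL6 change was not called. With a trend in transcript GC content removed from each library, as described below, the ARP1 change was not called. The ANBL6 call was lost when any 1 of its 4 libraries was left out (limma adjusted p = 0.0929 to 0.3), and the ANBL6BR call without DMSO replicate 2 (0.0816) or I3MO replicate 2 (0.125).

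LAS1L, the endonuclease that cuts the internal spacer of the large-subunit precursor (chromosome X, positions 65512582 to 65534775, minus strand, hg38), changed most in U266. There it had 4.42 and 4.48 FPKM in I3MO against 8 and 8.1 FPKM in DMSO, the smallest p of any member in U266 (−0.73 ± 0.07 log2, limma adjusted p = 1.15e-05). In ARP1 it had 8.54 and 9.34 FPKM in I3MO against 12.3 and 12.5 FPKM in DMSO (−0.43 ± 0.07, limma adjusted p = 0.000581), and in ANBL6 13.4 and 14.7 FPKM in I3MO against 16.6 and 18.7 FPKM in DMSO (−0.31 ± 0.07, limma adjusted p = 0.0213). The groups were apart in all 3 lines. In ANBL6BR (10.2 and 9.92 FPKM in I3MO against 10.6 and 11.3 in DMSO) and in RPMI8226 (16.7 and 16.7 in I3MO against 17 and 16.7 in DMSO) the change was small and not called. The ANBL6 call was lost without DMSO replicate 2 (limma adjusted p = 0.213) or I3MO replicate 1 (0.099), and the other calls were kept in every leave-out.

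GRWD1 had 56.4 and 58.9 FPKM in ARP1 I3MO against 97.4 and 92.7 FPKM in ARP1 DMSO, and 28.6 and 26 FPKM in ANBL6BR I3MO against 37.1 and 34.5 FPKM in ANBL6BR DMSO. The treated libraries were lower without overlap in both lines (ARP1 −0.71 ± 0.1 log2, limma adjusted p = 0.000228; ANBL6BR −0.38 ± 0.1, limma adjusted p = 0.0206). The ANBL6BR call was lost without DMSO replicate 1 (limma adjusted p = 0.0823) or I3MO replicate 2 (0.164). PES1, which forms the PeBoW complex with BOP1 and WDR12, had 12 and 13.9 FPKM in ARP1 I3MO against 16.4 and 16.2 FPKM in ARP1 DMSO (−0.31 ± 0.09 log2, limma adjusted p = 0.0139). In U266 it had 16.2 and 17.2 FPKM in I3MO against 14 and 13.6 FPKM in DMSO (0.26 ± 0.09, limma adjusted p = 0.044), so the groups were apart in both lines and in opposite order. The U266 call was lost when any 1 of its libraries was left out (limma adjusted p = 0.0595 to 0.177), and the ARP1 call without DMSO replicate 1 or I3MO replicate 1. Its partner WDR12 rose in ARP1 (11 and 10.7 FPKM in I3MO against 5.74 and 7.32 in DMSO; 0.67 ± 0.1 log2, limma adjusted p = 0.000363), and BOP1 was called in no line after I3MO.

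GNL3, nucleostemin, a nucleolar GTPase abundant in proliferating cells, had 18.4 and 15.7 FPKM in ARP1 I3MO against 6 and 9.09 FPKM in ARP1 DMSO, without overlap. Its rise of 1.1 ± 0.15 log2 had the smallest p among the ARP1 members (limma adjusted p = 0.000161). The helicase DDX18 (1.22 ± 0.22 log2) and the assembly factor NOC3L (1.1 ± 0.23) rose as well, and MRTO4, a relative of the ribosomal stalk protein (−0.49 ± 0.1), NOP2, an RNA methyltransferase (−0.31 ± 0.07), and RRP1 (−0.3 ± 0.1) fell. NOP2 went the other way in RPMI8226, with 5.95 and 6.74 FPKM in I3MO against 4.64 and 4.75 FPKM in DMSO (0.36 ± 0.07, limma adjusted p = 0.00269, kept in every leave-out). EBNA1BP2, a nucleolar protein of early large-subunit assembly, rose in RPMI8226 by 0.44 ± 0.13 log2 (limma adjusted p = 0.0472), a call lost when any 1 of the 4 libraries was left out. RRP1B fell in ANBL6 (−0.49 ± 0.12 log2, limma adjusted p = 0.033) and was likewise lost in each leave-out; the RRP1 call in ARP1 was lost without DMSO replicate 1, DMSO replicate 2 or I3MO replicate 1.

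The ARP1 changes followed the base composition of the transcripts. All 14 members that rose had a GC content of 37.7 to 43.5% (median 40.7%), and all 13 that fell had 51.3 to 64.8% (median 57.1%), with the 19 that were not called at 44.8 to 65.2%. Of the 23 members under 50% GC, 14 rose and 0 fell; of the 23 others, 0 rose and 13 fell. Pearson's r between the ARP1 change and GC content was −0.83 over the 46 members and −0.44 over 15363 tested genes, genes being no independent replicates. In the other lines r over the members was −0.02 (ANBL6), −0.32 (ANBL6BR), 0.27 (RPMI8226) and 0 (U266).

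The replicates of ARP1 differed along the same axis. Between the DMSO libraries, all 14 risers were higher in replicate 2 than in replicate 1, by a median of 0.59 log2 (0.3 to 0.89), while the 13 that fell differed by a median of −0.02. Between the I3MO libraries, 1 of the 14 was higher in replicate 2 (median −0.22), and 13 of the 13 that fell were (median 0.12). The r of the replicate difference with GC over the members was 0.66 for ARP1 I3MO and −0.72 for ARP1 DMSO. Over the members it was about as large in ANBL6 I3MO (0.64), where the change after I3MO did not follow GC content. It lay between −0.26 and 0.31 in the other 7 groups. Over 15363 tested genes it was 0.22 for ARP1 I3MO, −0.2 for ARP1 DMSO and 0.12 for ANBL6 I3MO. A GC trend was then removed from each library, an alternative chosen after seeing the data. With it, 14 members were called in ARP1, 11 higher and 3 lower. Of all genes, 32.5% were called, 68.1% of them higher, so the share of the members was no longer above that of all genes. Of the 27 original calls, 13 were kept. These were 10 that rose and the falls of GRWD1, LAS1L and MRTO4. The rises of NPM1, WDR75, UTP20 and HEATR1 were lost, as were NOC2L (limma adjusted p = 0.131) and the other 9 falls. The median of the members was 0.03 beside 0.12 for all genes. The part of base composition in the ARP1 changes was not tested beyond this.

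**Figure D4:**
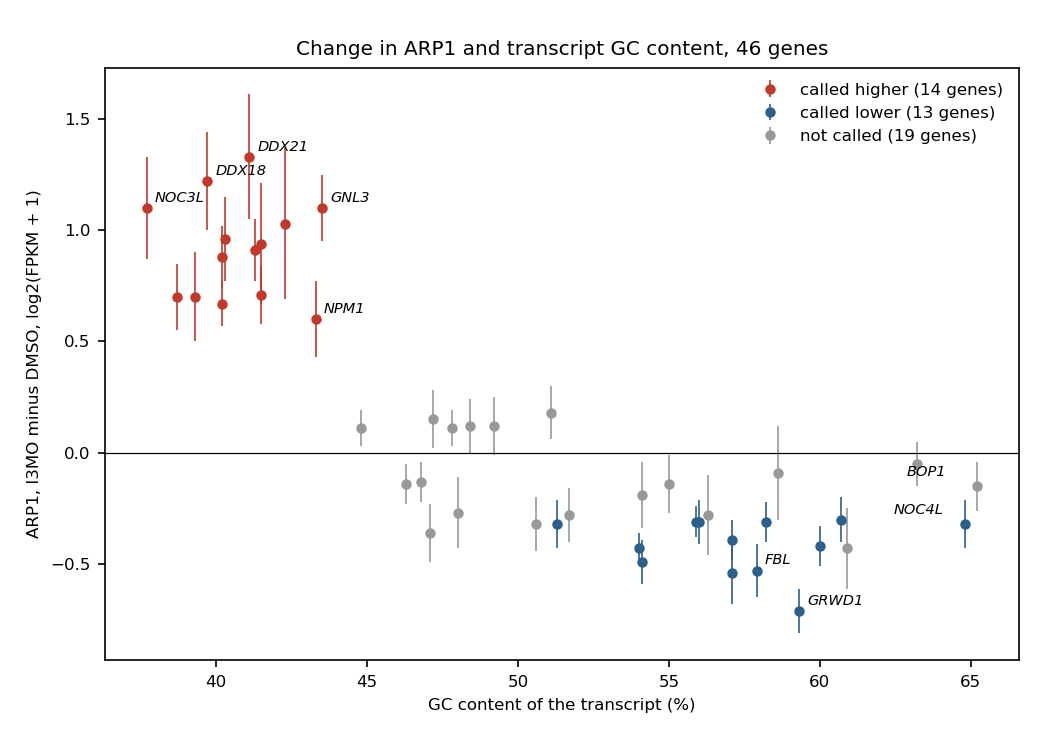
Difference between I3MO and DMSO in ARP1 in log2(FPKM + 1), with its SE, against the GC content of the longest protein-coding transcript, for the 46 members; red was called higher, blue lower and grey not called. The 14 red points lie at 37.7 to 43.5% GC and the 13 blue points at 51.3 to 64.8%.

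The genes that rose or fell in ARP1 had medians near 0 in the other lines. The median change of the 14 risers was −0.06 log2 in ANBL6, 0.05 in ANBL6BR, 0 in RPMI8226 and −0.06 in U266, and that of the 13 that fell was −0.09, −0.11, 0 and −0.15. The E-box was found in 3 of the 12 matched promoters of risers (25%), in 6 of the 13 of those that fell (46.2%) and in 4 of the 13 of those not called (30.8%). Of the 7 members that hold snoRNA genes (25 in all, by annotation), NOP58, WDR43 and GNL3 rose, NOP56 fell, and DKC1, NCL and PPAN were not called in ARP1. GNL3 holds 6 of these snoRNA genes. By annotation, 3.8% of its exon bases are shared with other genes, some of them snoRNA genes, and 0% in the hosts WDR43 and NCL.

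Tests of the difference between responses asked whether the lines differed in their reaction to I3MO. An equal response in all 5 lines was rejected for 22 members, beside 44.5% of all genes. The response of ANBL6BR exceeded that of ANBL6 for 3 members and fell below it for 0, beside 8.47% of all genes (4.14% higher, 4.33% lower): NOLC1 (0.6 ± 0.11 log2, limma adjusted p = 0.00785), POLR1B (0.52 ± 0.11, limma adjusted p = 0.0147) and POLR1A (0.76 ± 0.17, limma adjusted p = 0.0192). The POLR1B and POLR1A calls were lost without ANBL6BR I3MO replicate 1, ANBL6 DMSO replicate 2 or ANBL6 I3MO replicate 2, and that of POLR1A also without ANBL6BR I3MO replicate 2 (limma adjusted p = 0.0503 to 0.08). The NOLC1 call was kept in every leave-out but was lost with median-ratio scaling, which kept those of POLR1B and POLR1A. Among the lines at 10 µM, ARP1 and RPMI8226 differed for 19 members (11 higher and 8 lower in ARP1), beside 27% of all genes (18.1% higher, 8.91% lower). With median-ratio scaling 5 were higher and 22 lower (40.2% of all called genes were higher, in place of 67%), and with only the groups compared 5 were higher and 12 lower. ARP1 and U266 differed for 20 (14 higher and 6 lower in ARP1), beside 30.6% (21% higher, 9.7% lower). With median-ratio scaling 5 were higher and 14 lower (43.4% of all called genes were higher, in place of 68.4%), so the balance of higher and lower members in both ARP1 differences depends on the scaling. U266 and RPMI8226 differed for 2, both lower in U266, beside 13.6% (6.04% higher, 7.55% lower): LAS1L (−0.72 log2, limma adjusted p = 0.000497) and POLR1E (−0.57, limma adjusted p = 0.0457). The POLR1E difference was kept without RPMI8226 DMSO replicate 2 and without U266 I3MO replicate 2, and was lost without any other of the 8 libraries (limma adjusted p = 0.104 to 0.164). These comparisons share the ARP1, RPMI8226 and U266 libraries.

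Without I3MO, the bortezomib resistant ANBL6BR line differed from ANBL6 in 31 of the 46 members (67.4%), beside 51.8% of all genes. With protein-coding genes only, 31 members and 64.6% of genes were called. With a mean FPKM of at least 5, 28 of 40 members and 67.1% of genes were. The share of the members was thus near that of such genes. The libraries of the 2 lines did not overlap for 38 members, beside 71.2% of all genes. Of the 31 called members, 23 were lower in ANBL6BR (24.8% of all genes were) and 8 higher (27%). The median of the members was −0.21 log2 beside 0 for all genes. The large-subunit factors had 10 lower and 4 higher of 17, the small-subunit factors 6 and 2 of 12, the shuttle proteins 3 and 0 of 4, the polymerase I genes 2 and 1 of 6, the box H/ACA proteins 1 and 1 of 4 and the box C/D proteins 1 and 0 of 3. In the leave-outs 22 of the 31 calls were always kept, and the count ran from 24 to 30.

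Among the lower genes, UTP4, a processome scaffold, had 3.86 and 4.03 FPKM in ANBL6BR against 9.06 and 10.2 FPKM in ANBL6 (−1.1 ± 0.09 log2, limma adjusted p = 3.55e-07). NPM1 had 33.8 and 32.2 FPKM in ANBL6BR against 79.3 and 82.6 FPKM in ANBL6 (−1.27 ± 0.17, limma adjusted p = 3.49e-05). Both were below the ANBL6 libraries throughout. PES1 had 13.4 and 13.8 FPKM in ANBL6BR against 24.3 and 24.5 FPKM in ANBL6 (−0.8 ± 0.09, limma adjusted p = 5e-06), and its partners BOP1 (41.2 and 34.4 FPKM in ANBL6BR against 69.3 and 74.9 in ANBL6) and WDR12 (−0.68 ± 0.1) were lower too, so all 3 PeBoW genes were. NOC2L (−0.8 ± 0.09), LAS1L (−0.64 ± 0.07), HEATR1 (−1.23 ± 0.27), NCL (−0.64 ± 0.13), NOLC1 (−0.55 ± 0.08), POLR1B (−0.55 ± 0.08) and NOP58 (−0.75 ± 0.14) were among the remaining lower genes.

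The genes higher in ANBL6BR were led by GRWD1, with 37.1 and 34.5 FPKM in ANBL6BR against 14.8 and 14.9 FPKM in ANBL6 (1.22 ± 0.1 log2, limma adjusted p = 4.75e-07). RRS1, which helps load the small ribosomal RNA particle of the large subunit, had 58.2 and 52.4 FPKM in ANBL6BR against 23.1 and 23.4 FPKM in ANBL6 (1.21 ± 0.18, limma adjusted p = 7.84e-05). The groups were far apart for both. NOC3L (0.94 ± 0.23), PPAN (0.74 ± 0.1), RRP12 (0.71 ± 0.21), GAR1 (0.49 ± 0.13), POLR1C (0.42 ± 0.09) and NOP14 (0.33 ± 0.11) were also higher. PPAN shares 59.8% of its exon bases with other genes. The calls of RRP12, GAR1 and NOP14 were lost in some leave-outs, RRP12 without ANBL6BR DMSO replicate 2 (0.23 log2, limma adjusted p = 0.091) or ANBL6 DMSO replicate 1 (0.61, 0.085), GAR1 without ANBL6BR DMSO replicate 1, and NOP14 without any but ANBL6 DMSO replicate 2.

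**Figure D5:**
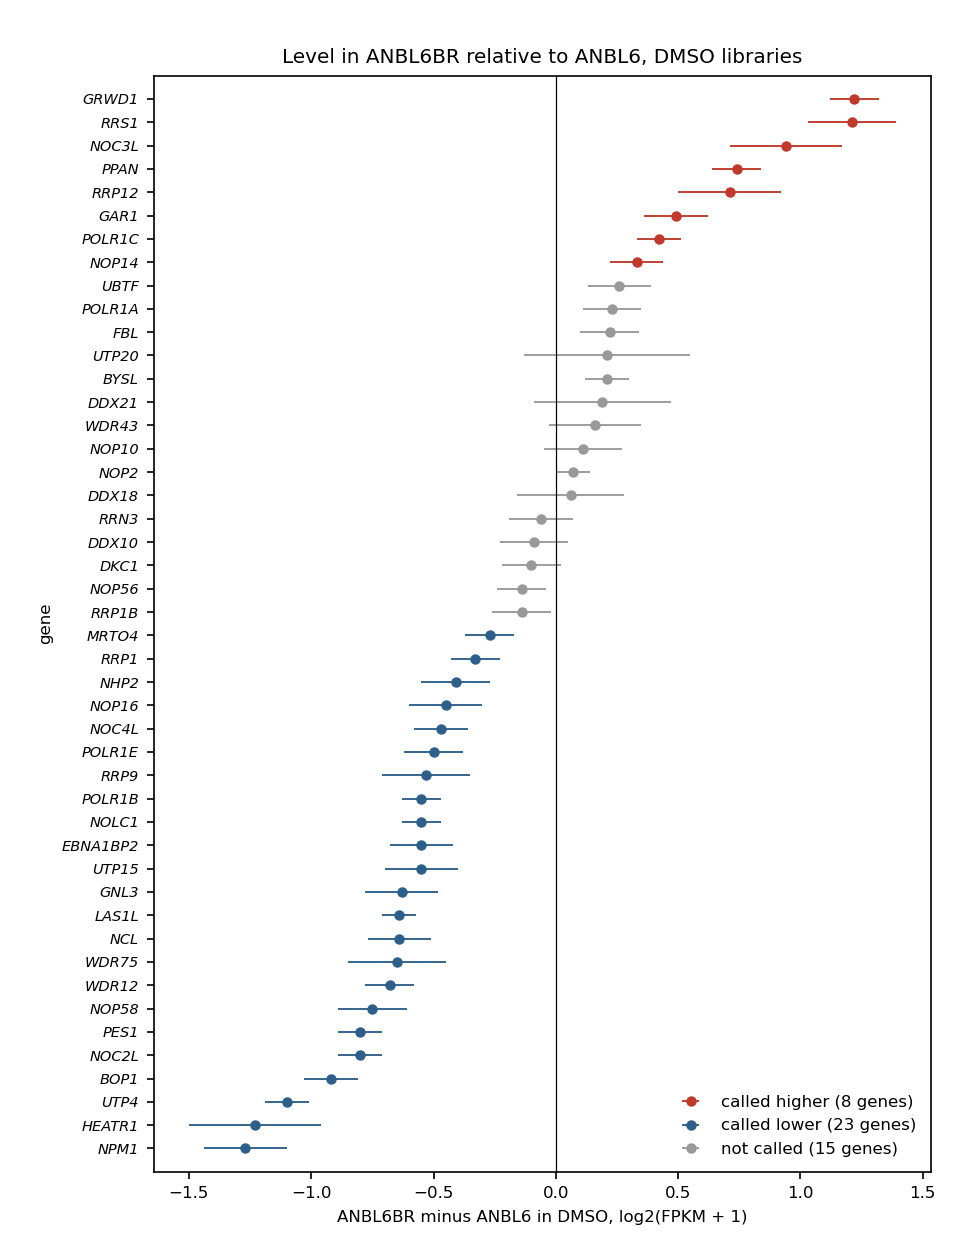
Difference between ANBL6BR and ANBL6 in DMSO in log2(FPKM + 1) for the 46 members; red was called higher, blue lower and grey not called (limma adjusted p under 0.05), and bars are the SE. Most of the called members are lower in ANBL6BR, 23 against 8.

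MYC itself was at 10.9 and 2.55 FPKM in ANBL6BR DMSO against 105 and 94.8 FPKM in ANBL6 DMSO, a difference of −3.95 ± 0.37 log2 (limma adjusted p = 1.32e-06). With the shared fit it was not called after I3MO in any line. In RPMI8226 it had 46.5 and 52.4 FPKM in I3MO against 111 and 111 FPKM in DMSO (limma adjusted p = 0.0554), and it was called lower there under 4 alternatives (limma adjusted p = 0.024 to 0.043). It was also called lower in U266 with only the groups compared (−0.44 log2, limma adjusted p = 0.0427). In ANBL6BR the MYC change was 0.24 log2 with all libraries (limma adjusted p = 0.819), 1.11 without DMSO replicate 1 (limma adjusted p = 0.000108) and −0.64 without DMSO replicate 2 (limma adjusted p = 0.00593).

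Of 122 further genes of the pathway, listed by role with earlier results of these data known, 119 were tested. After I3MO, 15 were called in ANBL6 (7 higher, 8 lower; 12.6% beside 7.97% of all genes), 19 in ANBL6BR (10 higher, 9 lower; 16% beside 18.4%) and 73 in ARP1 (48 higher, 25 lower; 61.3% beside 37%). In RPMI8226 13 were called (11 higher, 2 lower; 10.9% beside 14.8%) and in U266 24 (8 higher, 16 lower; 20.2% beside 26.2%). In ARP1, RSL24D1, a large-subunit maturation factor, rose by 1.27 ± 0.13 log2 (limma adjusted p = 2.56e-05) and POP5, a subunit of RNases P and MRP, fell (−1.15 ± 0.08, limma adjusted p = 1.58e-06). RSL24D1 also rose in U266 (0.93 ± 0.13, limma adjusted p = 0.000228). EXOSC6, a core subunit of the RNA exosome, fell in RPMI8226 (−0.87 ± 0.08, limma adjusted p = 2.56e-05), and NOL9, a kinase that acts with LAS1L, fell in ANBL6BR (−1 ± 0.1, limma adjusted p = 5.11e-05). Between ANBL6BR and ANBL6 in DMSO, 76 were called (28 higher, 48 lower in ANBL6BR; 63.9% beside 51.8% of all genes), among them UTP3 (−2.1 ± 0.17, limma adjusted p = 2.89e-07) and RPP25, another RNase P and MRP subunit (−4 ± 0.14, limma adjusted p = 1.37e-10). These named calls were kept in every leave-out. With only the groups compared, 4 were lost. They were RSL24D1 in ARP1 (limma adjusted p = 0.0621) and U266 (0.0604), POP5 in ARP1 (0.0508) and NOL9 in ANBL6BR (0.0684). POP5 was also called in the other direction, higher in ANBL6 (0.29 log2) and in RPMI8226 (0.41 log2), but these calls were less stable. The ANBL6 call was lost in each leave-out but that of I3MO replicate 1. It was also lost with median-ratio scaling (limma adjusted p = 0.135) and with only the groups compared (0.188). The RPMI8226 call was lost without I3MO replicate 1 and with only the groups compared (limma adjusted p = 0.0582).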

How the data were processed

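The authors deposited FPKM values per Ensembl gene for 20 libraries, as 1 joint matrix and as single-library tables holding the same values. Per the submitters' processing notes, Trimmomatic (0.32 or 0.36), STAR, SAMtools and the hg38 build were used; the counting tool and the strand setting are not given in the sources used here. No counts were used, so a count model was not the test. FPKM steps gave whole fragments (within 0.02) for 99.7 to 100% of values, when each gene's length was taken as the summed exons of its annotated transcripts, counted once per transcript. FPKM values of different genes are therefore comparable only after dividing by merged exon length, as done for the DMSO levels. Symbols came from GENCODE 29, for 56753 of 60483 IDs.

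The 46 members and the other lists were chosen with earlier results of these data known. Differences in log2(FPKM + 1) were fitted with limma 3.58.1 (R 4.3.3), with 10 group means over all 20 libraries and an intensity trend, on the 15687 genes that reached an FPKM of 1 in 2 or more libraries; all 46 members passed. This pseudocount understates fold changes of low genes. Calls have a Benjamini-Hochberg adjusted p under 0.05 over all tested genes, in 13 limma comparisons. The fit was tested on simulated data. Per comparison, up to 6 called members in each direction with the smallest p were named; library values are given for members called the same way in 2 or more lines and 1 to 3 per role with the smallest p. Further members named in ARP1 or in ANBL6BR against ANBL6, and those with library values outside this rule, were chosen after their values were seen. MYC and up to 3 genes per other list were also named.

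Replicate numbers did not pair the libraries. GC content is that of the longest protein-coding transcript. At least 10% of the exon bases of 7 members are shared with other genes (PPAN 59.8%, NHP2 27.4%, HEATR1 23.2%, NOP16 20%, EBNA1BP2 18.8%, POLR1C 18.2%, NOP14 17.1%) and 9 members have named pseudogenes, so their values are uncertain.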

Additional observations from a re-analysis of the deposited data

Results flagged for a closer look

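The responses to I3MO of 2 cell lines were set against each other by a test of the difference itself (limma, adjusted p under 0.05 over all tested genes), and the differences that passed are listed here. An equal response in the 5 lines was rejected for 22 members, beside 44.5% of all genes, a share near that of the members (47.8%). Between ANBL6BR and ANBL6, 3 members differed, beside 8.47% of all genes, which is above the members' 6.52%: NOLC1 (0.6 log2), POLR1B (0.52) and POLR1A (0.76). Each was higher in the ANBL6BR response. With median-ratio scaling the NOLC1 difference was lost. With the 8 ANBL6BR and ANBL6 libraries fitted alone, none of the 3 was called (limma adjusted p = 0.057, 0.0707 and 0.106 for NOLC1, POLR1B and POLR1A).

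Between ARP1 and RPMI8226, 19 members differed, beside 27% of all genes. With protein-coding genes only, 24 members and 39.4% of genes did. The ARP1 response was higher for GNL3 (1.1 log2), WDR43 (1.3), DDX10 (0.89), WDR12 (0.67), NOP58 (0.85) and DDX21 (1.52), and lower for NOP2 (−0.67), GRWD1 (−0.7), RRP9 (−1.2), BYSL (−0.59), LAS1L (−0.42) and MRTO4 (−0.59). Of these, the DDX21, LAS1L and MRTO4 differences were lost without ARP1 I3MO replicate 1, and DDX21 also without ARP1 DMSO replicate 1.

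Between ARP1 and U266, 20 members differed, beside 30.6% of all genes. With protein-coding genes only, 22 members and 41.7% of genes did. The ARP1 response was higher for NOP58 (1.27 log2), GNL3 (1.33), WDR43 (1.34), DDX10 (0.93), WDR12 (0.7) and RRN3 (0.87), and lower for NOP2 (−0.44), PES1 (−0.56), GRWD1 (−0.47), NOP10 (−0.68), FBL (−0.53) and BYSL (−0.38). The GRWD1, NOP10, FBL and BYSL differences were each lost without 4 or more of the 8 libraries. Pearson's r of the difference with transcript GC content over the 46 members was −0.82 for ARP1 against RPMI8226 and −0.78 for ARP1 against U266. With the GC trend removed from each library, 9 members differed between ARP1 and RPMI8226, and WDR12, BYSL, LAS1L and MRTO4 were lost among those named. Of all genes, 18.6% then differed, 75.2% of them higher in ARP1. Between ARP1 and U266, 10 then differed, all higher in ARP1, and WDR12, NOP2, PES1, GRWD1, NOP10, FBL and BYSL were lost. Of all genes, 24.7% differed, 73.6% of them higher in ARP1.

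Between U266 and RPMI8226, 2 members differed, beside 13.6% of all genes: LAS1L (−0.72 log2) and POLR1E (−0.57), both lower in the U266 response. The LAS1L difference was kept in every leave-out.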

How the results depend on the processing

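With 2 libraries a group, calls on single members depend on the shared spread, and a member not called may still differ. No called member changed direction under any alternative, except LAS1L in ARP1 against U266 (−0.02 log2, limma adjusted p = 0.94, with median-ratio scaling); MYC in ANBL6BR was −0.64 (limma adjusted p = 0.00593) without DMSO replicate 2 and 1.11 (limma adjusted p = 0.000108) without DMSO replicate 1. The cause was not tested.

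Fits on only the groups compared called 0 higher and 0 lower in ANBL6, ANBL6BR and ARP1, 3 lower in RPMI8226, 0 higher and 1 lower in U266, 0 for ANBL6BR against ANBL6 responses and 8 for ARP1 against U266. Of all genes, they called 0.115% in ANBL6, 0.408% in ANBL6BR, 1.45% in ARP1, 10.6% in RPMI8226 and 6.21% in U266. For the responses they called 2.02% (ANBL6BR against ANBL6) and 16.4% (ARP1 against U266). Replicate numbers did not pair the libraries (same-number correlations of −0.11 to 0.03). A fit with the replicate block called 0 higher and 0 lower in ANBL6, 0 lower in ANBL6BR and RPMI8226, 0 higher in U266, 24 in ARP1, 0 for ANBL6BR against ANBL6 responses, 12 for ARP1 against RPMI8226, 10 for ARP1 against U266, 1 for U266 against RPMI8226 and 11 for an equal response. Of all genes, it called 2.91% in ANBL6, 12.9% in ANBL6BR, 30.9% in ARP1, 9.82% in RPMI8226 and 21.6% in U266. For the responses it called 2.88% (ANBL6BR against ANBL6), 16.2% (ARP1 against RPMI8226), 22.1% (ARP1 against U266), 9.07% (U266 against RPMI8226) and 25.1% (equal response). With crossed pairs, chosen after seeing the data, ARP1 had 23, beside 34.7% of all genes.

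Median-ratio scaling gave 0 higher and 2 lower in ANBL6, 23 lower in ARP1, 0 lower in RPMI8226, 0 higher and 3 lower in U266 and 1 for U266 against RPMI8226. Of all genes, it called 6.46% in ANBL6, 39% in ARP1, 16.2% in RPMI8226, 24.5% in U266 and 13.1% for U266 against RPMI8226. No higher call was left in U266 with no filter, a mean FPKM of at least 5 or protein-coding genes only. No filter gave 13 for ARP1 against U266 (11.4% of all genes) and 1 for U266 against RPMI8226 (5.72%). A pseudocount of 0.1 gave 1 there (9.84%). Removing the GC trend gave 3 lower in ARP1, 9 against RPMI8226, 10 against U266 and 14 for an equal response. It called 32.5% of all genes in ARP1, 18.6% against RPMI8226, 24.7% against U266 and 39.4% for an equal response.

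Leaving out 1 library gave 0 to 1 higher and 0 to 2 lower in ANBL6, 0 to 2 lower in ANBL6BR, 5 to 12 lower in ARP1, 2 to 3 higher and 0 to 1 lower in RPMI8226, and 0 to 2 higher and 3 to 9 lower in U266. For differences of responses it gave 1 to 6 (ANBL6BR against ANBL6), 11 to 22 (ARP1 against RPMI8226), 9 to 20 (ARP1 against U266), 1 to 3 (U266 against RPMI8226) and 12 to 30 (equal response). PPAN and RRN3, with 38 and 57 fragments in their lowest libraries, have the widest counting error.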
